A study of Mus musculus with 20 samples.

Results

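The 5 noncoding mouse genes Gm10032, Gm5420, Gm20597, Gm45218 and Gm40841 and the unconfirmed model Gm42971 were followed across 4 groups of skeletal muscle libraries. They are 6 of the 21844 genes in the count table and were picked because their counts differ with the Bmal1 genotype, so their differences between genotypes are given as a description, without a test. RNA was sequenced in 20 libraries, 5 in each group. All mice were Cre+:iMSBmal1 fl/fl, that is, they carried a floxed Bmal1 gene and a Cre recombinase that acts in muscle, and the groups differed in treatment: vehicle without exercise (sedentary vehicle), Bmal1 knockout without exercise (sedentary knockout), vehicle with treadmill training over 6 weeks (trained vehicle) and knockout with the same training (trained knockout). In the iMSBmal1 line as it is generally described, a skeletal actin promoter drives the inducible Cre, so cells of muscle tissue other than fibres keep the gene. An effect of the inducing treatment itself cannot be told apart from the loss of Bmal1 in this design. The word genotype stands below for this difference between vehicle and knockout groups. The labels name both gastrocnemius and tibialis anterior as the tissue, and collection is given as 48 hours post in one place and as 47 hours after the last bout in another. The samples are described here as hindlimb muscle. The age and sex of the mice are not given in the sources used here, and no label says that the libraries of a group came from separate animals, so p-values measure only the spread between these libraries.

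BMAL1 is a transcription factor of the circadian clock. It pairs with CLOCK and binds E-box sequences, and the PER and CRY proteins, whose genes it activates, in turn inhibit the pair. Long noncoding RNAs are transcripts without a long reading frame. Some act on transcription or chromatin and many have no known role, and symbols that begin with Gm are placeholder names for predicted mouse genes. No function of any of the 6 is assumed below.

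The sequences below come from RefSeq promoters and GENCODE M21 transcripts, both on the GRCm38 build. The deposited table gives gene identifiers and no coordinates, and the submitters' processing notes name both mm10 and GRCm39, so positions here are those of the GRCm38 annotation and not of the authors' files. RefSeq promoters (250 bases before to 50 bases after the start) were matched for 2 of the 6 genes, Gm5420 (chr10:21690595-21690894, plus strand) and Gm20597 (chr10:53518940-53519239, minus strand). They were searched on both strands for the E-box CACGTG, the D-box (TTATGTAA or TTACGTAA) bound by DBP and its relatives, and the ROR half-site AGGTCA, and matches are in capitals.
Gm5420 promoter: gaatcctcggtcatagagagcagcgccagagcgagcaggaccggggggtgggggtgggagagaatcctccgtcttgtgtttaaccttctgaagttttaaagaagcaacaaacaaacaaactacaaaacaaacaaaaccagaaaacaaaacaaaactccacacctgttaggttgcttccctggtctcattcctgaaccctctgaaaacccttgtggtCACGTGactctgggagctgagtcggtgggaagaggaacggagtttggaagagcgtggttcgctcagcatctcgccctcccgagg
Gm20597 promoter: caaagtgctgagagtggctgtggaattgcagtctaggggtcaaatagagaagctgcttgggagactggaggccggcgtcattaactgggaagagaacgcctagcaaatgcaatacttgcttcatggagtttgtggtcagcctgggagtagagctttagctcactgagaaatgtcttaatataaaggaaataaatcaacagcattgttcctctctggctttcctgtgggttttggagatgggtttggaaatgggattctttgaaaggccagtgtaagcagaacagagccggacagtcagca
The Gm5420 window holds 1 E-box, 34 bases before the start, and no match to the other motifs. By sequence this RefSeq start is also the start of the longest M21 transcript of Gm5420. It lies inside the M21 span of the gene, which begins further upstream. The Gm20597 window holds none of the 3. Over all 27025 promoters in the table, 7.24% hold the E-box, 1.06% a D-box and 16.0% the ROR half-site. A match is a string of letters and not a site of binding, which was not measured here.

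A further 3 stretches identify the transcripts and show where counting is uncertain. The first is the opening of the longest annotated transcript of Gm10032, the gene with the highest ratio between genotypes in sedentary muscle. The second is a stretch of Gm20597 that is annotated on both strands, because the noncoding gene Gm40650 runs across it in the opposite direction. The third is the stretch of Gm40841 that is shared with the most other genes.
Gm10032 transcript, first 120 bases: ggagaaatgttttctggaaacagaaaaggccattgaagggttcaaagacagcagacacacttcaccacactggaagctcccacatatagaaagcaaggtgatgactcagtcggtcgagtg
Gm20597, 72 bases shared with Gm40650: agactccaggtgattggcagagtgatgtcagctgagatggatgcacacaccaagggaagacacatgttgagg
Gm40841, 50 bases shared with 79 other genes: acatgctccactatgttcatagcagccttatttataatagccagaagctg
Reads from the Gm20597 stretch cannot be told from Gm40650 reads unless the counting used strand, which is not stated. Of the distinct 50-base words in the Gm40841 transcripts, 8.10% also occur, on either strand, in transcripts of 248 other genes. That share was 1.01% for Gm20597 and 0.0454% for Gm10032, and it was 0 for Gm5420, Gm45218 and Gm42971. All 120 deposited values of the 6 genes were whole numbers, whereas 72% of the values in the whole table were, so no fractional assignment of reads is visible in these rows. Among tested genes, 40.6% had whole numbers in every library.

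GENCODE M21 lists 5 of the 6 as long intergenic noncoding RNA genes. Gm10032 (ENSMUSG00000057913) lies at chr14:66784480-66793758 on the plus strand, Gm5420 (ENSMUSG00000056716) at chr10:21686411-21707440 on the plus strand and Gm20597 (ENSMUSG00000112739) at chr10:53498443-53518989 on the minus strand. Gm45218 (ENSMUSG00000108308) lies at chr6:91599232-91605514 on the plus strand and Gm40841 (ENSMUSG00000113216) at chr13:28394453-28420066 on the minus strand. Gm42971 (ENSMUSG00000105568, chr3:127283481-127285559, minus strand) is a model of 1 exon in the class TEC, which marks transcripts whose existence is still to be tested, and it lies on the same strand within an intron of Ank2, the gene of the membrane adaptor ankyrin-B. Its reads and unspliced Ank2 RNA cannot be told apart in gene counts.

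Library totals ranged from 10610333 to 19153527 estimated counts, so 3 counts, the smallest number treated as detected, correspond to between 0.157 and 0.283 CPM (counts scaled to the library total). Trained knockout libraries 1 and 4, and libraries 3 and 5, differed by little more than sampling noise and were counted as 1 sample each. Their median squared differences at 1000 to 10000 counts were 2.38 and 1.76 times the Poisson expectation, and the lowest value of the other pairs was 6.38, so this group has n = 3. Trained vehicle library 2 stands far from its group. Its Arntl (Bmal1) level was 132.3 CPM where the other 4 libraries of the group lay between 6.32 and 6.68 CPM. In sedentary muscle Arntl was not lower in libraries labelled knockout: it was 6.79 ± 0.890 CPM in sedentary vehicle (SD, n = 5) and 13.2 ± 3.28 CPM (SD, n = 5) in sedentary knockout libraries. In trained muscle the knockout samples, at 10.9 ± 4.46 CPM (SD, n = 3), lay below the vehicle mean of 31.6 ± 56.3 CPM (SD, n = 5), which rests on library 2, and above each of the other 4 vehicle libraries. The count covers the whole gene and not the floxed part alone, so it does not check the labels, and the groups are called knockout-labelled below. The 8 fibre genes checked, among them Acta1 and Ckm, summed to between 49770 and 89670 CPM in every sample, so the tissue is muscle by these markers. No marker of slow fibres, blood, adipocytes, endothelium, macrophages, Schwann cells or satellite cells that was tested (3 of 5 for satellite cells, all 5 for each other list) passed the test in either comparison of genotypes. The markers were not counted without trained vehicle library 2, and the lack of calls does not show equal cell composition. The 5 satellite cell markers summed to 23.1 to 30.9 CPM in sedentary vehicle and 30.1 to 35.0 CPM in sedentary knockout samples. In trained samples their sums were 17.0 to 28.2 CPM in vehicle and 21.0 to 30.2 CPM in knockout. These are bulk samples, in which fewer cells of a type and less RNA per cell cannot be told apart.

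Gm10032 was close to absent from every knockout-labelled library. In sedentary vehicle libraries its counts were 56, 45, 62, 68 and 48, and in sedentary knockout libraries 0, 0, 0, 0 and 1. In trained vehicle libraries they were 32, 54, 39, 75 and 58, and in trained knockout libraries 0, 3, 0, 0 and 1. The lowest vehicle library held 32 counts and the highest knockout-labelled library 3, so the genotypes did not overlap in either training state. The mean level was 3.51 ± 0.642 CPM in sedentary vehicle (SD, n = 5) and 3.27 ± 0.881 CPM in trained vehicle libraries (SD, n = 5). From summed counts, 279 against 1, the sedentary ratio of vehicle to knockout-labelled was 254.0 (95% exact interval 45.2 to 10070). In trained muscle, with 258 against 4 counts, it was 48.9 (18.9 to 180.9). Such intervals cover counting error only.

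Gm5420, the gene with the E-box in its promoter window, followed the same pattern at a lower level. Its counts were 14, 16, 18, 25 and 19 in sedentary vehicle and 0, 2, 4, 0 and 0 in sedentary knockout libraries. They were 24, 16, 16, 16 and 17 in trained vehicle and 0, 2, 0, 1 and 2 in trained knockout libraries. No vehicle library was below 14 counts and no knockout-labelled library above 4. Its mean was 1.15 ± 0.207 CPM in sedentary vehicle and 1.16 ± 0.326 CPM in trained vehicle libraries (SD, n = 5 each). The ratio of vehicle to knockout-labelled was 13.96 in sedentary (exact interval 6.17 to 39.0) and 13.5 in trained muscle (5.57 to 42.6).

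Gm20597 was also lower in knockout-labelled libraries, and its mean level was also lower in trained than in sedentary libraries of both genotypes, a difference that did not pass the test given below. The counts were 42, 28, 33, 29 and 14 in sedentary vehicle and 2, 4, 3, 2 and 6 in sedentary knockout libraries. After training they were 11, 3, 12, 20 and 25 in vehicle and 0, 1, 0, 0 and 0 in knockout-labelled libraries. It was at 0 or 1 in the trained knockout-labelled libraries, and each sedentary knockout library held between 2 and 6 counts. Trained vehicle library 2, with 3 counts, was the lowest vehicle library and lay within the range of the sedentary knockout libraries. The mean was 1.88 ± 0.862 CPM in sedentary vehicle and 0.237 ± 0.113 CPM in sedentary knockout libraries (SD, n = 5 each), a ratio from summed counts of 7.82 (exact interval 4.72 to 13.8). Trained vehicle libraries had 0.904 ± 0.537 CPM (SD, n = 5), or 1.08 ± 0.421 CPM (SD, n = 4) without library 2. The trained ratio, from 71 against 1 counts, was 53.9 (9.36 to 2157). The antisense gene Gm40650 held 36 counts over all 20 libraries and was not tested. Its level was 0.290 ± 0.142 CPM in sedentary vehicle and 0.0309 ± 0.0429 CPM in sedentary knockout libraries (SD, n = 5 each), with overlapping values.

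Gm45218 resembled Gm20597. Its counts were 11, 22, 32, 31 and 18 in sedentary vehicle, 3, 1, 2, 4 and 0 in sedentary knockout, 14, 4, 10, 19 and 18 in trained vehicle and 0, 0, 1, 0 and 0 in trained knockout libraries. Trained vehicle library 2 was again the lowest of the vehicle libraries, with 4 counts. The mean was 1.39 ± 0.409 CPM in sedentary vehicle and 0.832 ± 0.384 CPM in trained vehicle libraries (SD, n = 5 each). Without library 2 the latter was 0.973 ± 0.250 CPM (SD, n = 4). The ratio of vehicle to knockout-labelled was 10.4 in sedentary muscle (exact interval 5.44 to 22.2). In trained muscle, where the knockout-labelled libraries held 1 count in all, it was 49.3 (8.54 to 1977).

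Gm40841 had the opposite pattern and was nearly silent in vehicle muscle. Its counts were 2, 1, 1, 2 and 6 in sedentary vehicle and 131, 50, 31, 33 and 44 in sedentary knockout libraries. In trained muscle they were 0, 9, 8, 4 and 1 in vehicle and 51, 13, 22, 57 and 25 in knockout-labelled libraries. The highest vehicle library was the outlying trained vehicle library 2, with 9 counts, and the lowest knockout-labelled library held 13. Sedentary knockout library 1 was far above the other 4 of its group. The mean was 0.152 ± 0.127 CPM in sedentary vehicle and 3.70 ± 1.82 CPM in sedentary knockout libraries (SD, n = 5 each), and 2.63 ± 2.07 CPM in trained knockout samples (SD, n = 3). Knockout-labelled exceeded vehicle by a ratio of 26.5 in sedentary (exact interval 14.9 to 51.8) and of 10.1 in trained muscle (6.44 to 16.5).

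Gm42971, the model inside Ank2, was likewise higher in knockout-labelled muscle. Sedentary vehicle libraries held 5, 10, 3, 6 and 3 counts and sedentary knockout libraries 51, 32, 17, 24 and 31. Trained vehicle libraries held 7, 1, 4, 2 and 4 counts and trained knockout libraries 27, 10, 22, 59 and 15. The sedentary means were 0.350 ± 0.204 CPM in vehicle and 2.07 ± 0.483 CPM in knockout-labelled libraries (SD, n = 5 each), a ratio of 6.31 (exact interval 4.17 to 9.88). In trained muscle the means were 0.239 ± 0.170 CPM in vehicle (SD, n = 5) and 2.09 ± 1.68 CPM in knockout-labelled samples (SD, n = 3), a ratio of 9.74 (5.93 to 16.9). Trained knockout libraries 1 and 4, which were counted as 1 sample, differed here, with 27 and 59 counts.

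**Figure D1:**
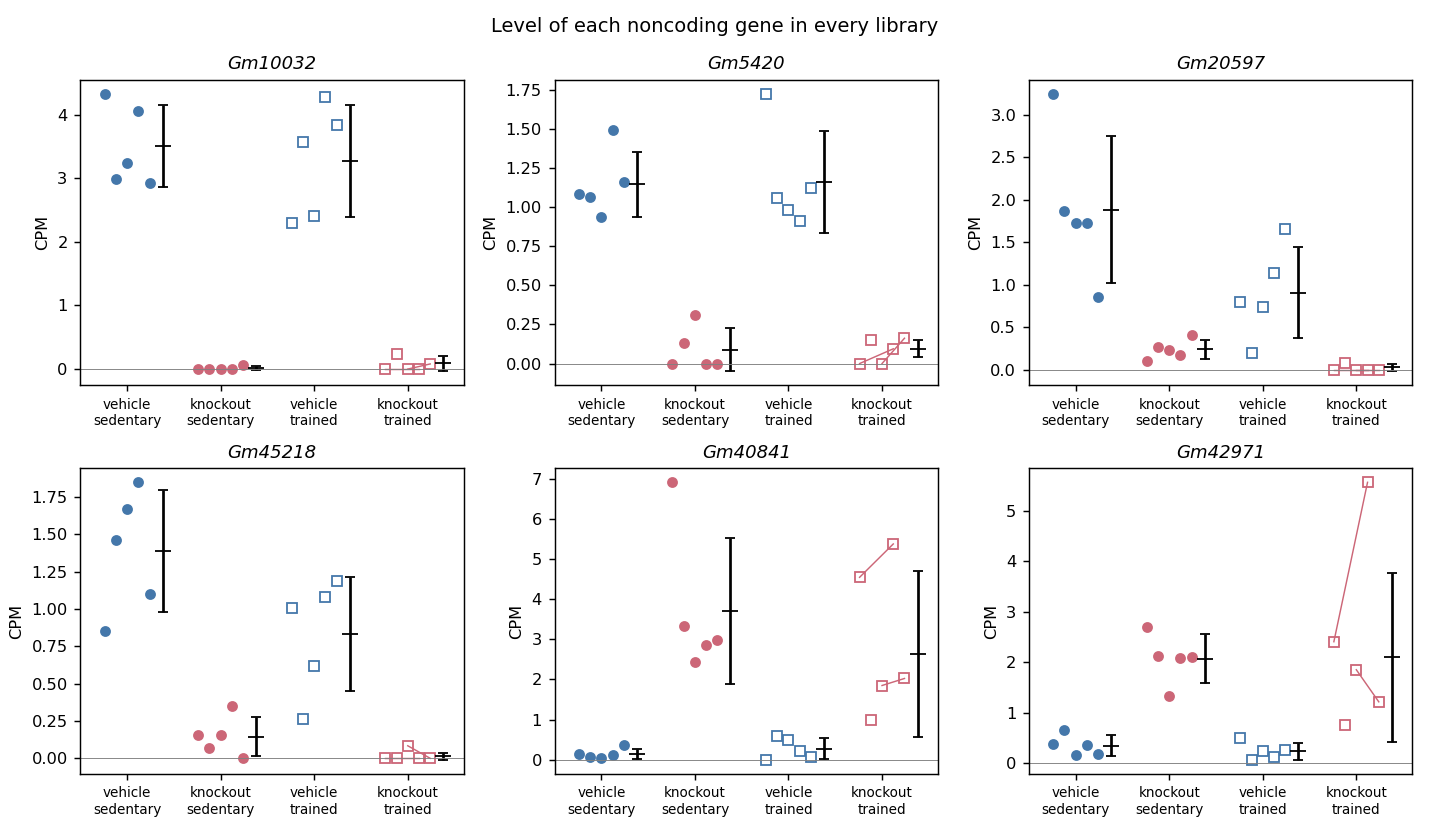
Level of each of the 6 genes in CPM (vertical axis, linear, different in each panel) in the 20 libraries by group; filled circles are sedentary and open squares trained libraries, lines join the library pairs counted as 1 sample, and black bars give the mean and SD over samples (n = 5, and 3 for trained knockout). Gm10032, Gm5420, Gm20597 and Gm45218 are near 0 in knockout-labelled libraries, and Gm40841 and Gm42971 are near 0 in vehicle libraries.

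In each training state the values of all 6 genes did not overlap between genotypes when samples were compared in CPM. Over the 14359 tested genes, 3.77% were lower without overlap and 5.63% higher without overlap in sedentary knockout samples, and 3.98% were lower and 3.98% higher in trained knockout samples. In both states at once, 1.19% were lower and 1.40% higher. The 6 were chosen for this difference, so nothing is read from their count. Each of them also passed the filter on low counts (5 or more libraries at 1 CPM or above) only through the genotype in which it is high. Between 6 and 10 libraries reached that level for each gene, and none of them was a knockout-labelled library for the first 4 genes or a vehicle library for Gm40841 and Gm42971.

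Per kilobase of annotated exon, the mean RNA level of each of the 6 lay below the median of tested genes in every group. The median of tested genes, as mean over libraries, was 3.33 CPM per kb. In sedentary vehicle muscle Gm10032 came highest with 1.56 ± 0.285 CPM per kb, followed by Gm45218 with 0.826 ± 0.244, Gm5420 with 0.459 ± 0.0830 and Gm20597 with 0.343 ± 0.157 (SD, n = 5 each). Gm42971 followed with 0.168 ± 0.0980 and Gm40841 with 0.0357 ± 0.0298 CPM per kb (SD, n = 5 each). The lowest Gm10032 library (1.30) was above the highest Gm45218 library (1.10), whereas every other pair of neighbours in this order overlapped. In sedentary knockout muscle the order was led by Gm42971 with 0.994 ± 0.232 and Gm40841 with 0.870 ± 0.428 CPM per kb (SD, n = 5 each), whose ranges overlapped each other but no other member's.

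The effect of training was not used to pick the genes, although the trained libraries it rests on also entered the genotype difference. None of the 6 passed the test for training (edgeR's quasi-likelihood F test, with 0.05 as the limit for the Benjamini-Hochberg adjusted p) in vehicle muscle, in knockout-labelled muscle or as the mean of both. The background was 0.00% in all 3 comparisons, with 0 of 14359 genes called. At an unadjusted p under 0.05 there were 2186, 1394 and 2130 genes, and DESeq2 called 0, 173 and 505 genes at an adjusted p under 0.05. The smallest p among the 6 genes was that of Gm20597. Its mean log2 change over both genotypes was -2.08 with SE 0.578 (edgeR unadjusted p = 0.00205, adjusted p = 0.109). In vehicle muscle alone the change was -1.01 with SE 0.435 (adjusted p = 0.300), and 3 of the 5 trained libraries lay below all 5 sedentary ones in CPM. In knockout-labelled muscle 17 counts in sedentary libraries stood against 1 in trained libraries, a ratio of 13.8 (exact interval 2.16 to 575.3, counting error only). Over the alternatives the adjusted p of the mean change ranged from 0.0416 with DESeq2 to 0.417 without trained knockout library 2, and it was 0.0703 without trained vehicle library 2.

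For Gm45218 the mean log2 change with training was -1.58 with SE 0.568 (edgeR adjusted p = 0.189). Over the alternatives it ranged from -2.42, without the trained knockout pair 3 and 5, to -1.31, without the pair 1 and 4 (adjusted p from 0.140 to 0.537). Its summed counts were 114 in sedentary and 65 in trained vehicle libraries, and 10 and 1 in knockout-labelled ones. In vehicle muscle the ratio of sedentary to trained summed counts was 1.05 for Gm10032 (exact interval 0.884 to 1.25) and 1.01 for Gm5420 (0.742 to 1.36). The fitted log2 changes there were -0.06 with SE 0.307 and 0.06 with SE 0.401. Over the alternatives they ran from -0.13 to 0.05 for Gm10032 and from -0.11 to 0.16 for Gm5420, so neither kept its direction. In knockout-labelled muscle Gm10032 had 1 and 4 counts in all, too few for a comparison. For the 2 genes that were higher in knockout-labelled muscle, the training change within that genotype was -0.37 with SE 0.555 (edgeR adjusted p = 0.964) for Gm40841 and 0.13 with SE 0.452 (edgeR adjusted p = 0.992) for Gm42971. Neither size was stable: that of Gm40841 ran from -1.09, without the trained knockout pair 1 and 4, to -0.01, without trained knockout library 2. That of Gm42971 turned direction, from -0.60 without the same pair to 0.49 without library 2. Leaving out sedentary knockout library 1 gave -0.03 for Gm40841 and 0.24 for Gm42971, leaving out the trained knockout pair 3 and 5 gave -0.21 and 0.29, and Gm42971 was at 0.01 without sedentary knockout library 3. The interaction of genotype and training is built from the contrasts that chose the genes and is given for description only. It ranged from -2.15 with SE 1.18 for Gm20597 to 2.03 with SE 1.09 for Gm10032 on the log2 scale, and 0.00% of tested genes passed it (0 genes, with 1076 at an unadjusted p under 0.05 and 29 called by DESeq2). Single libraries set these values: that of Gm10032 was 0.60 without trained knockout library 2 and 3.47 without sedentary knockout library 5, and that of Gm20597 was -3.93 without trained knockout library 2.

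**Figure D2:**
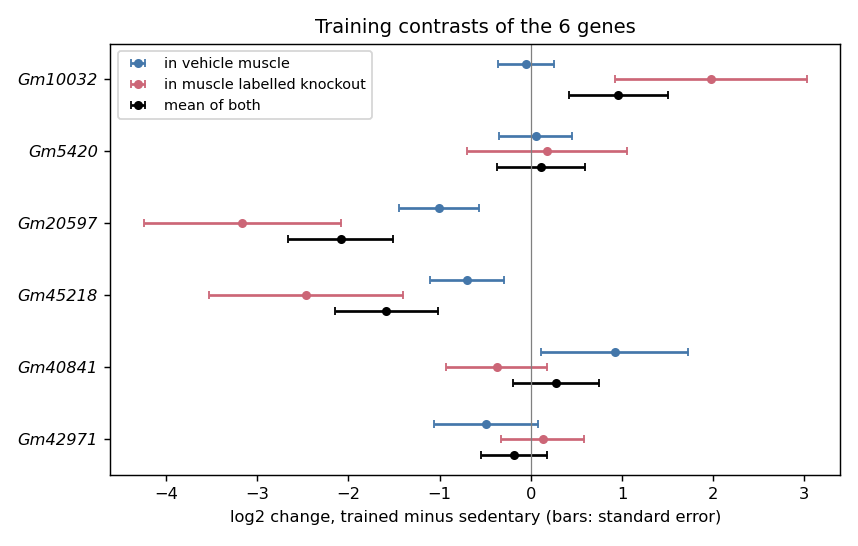
Log2 change with training (horizontal axis, trained minus sedentary) of the 6 genes from the edgeR fit, in vehicle muscle, in knockout-labelled muscle and as the mean of both; bars are standard errors. Gm20597 and Gm45218 lie below 0 in all 3 and the others near 0 or on both sides; for the upper 4 genes the knockout-labelled values rest on at most 17 counts in a group.

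The genes around the 6 were chosen by position alone. Within 100 kb, 17 annotated neighbours were in the table and 10 were tested. Of the 10, 1 passed the test in sedentary muscle and 2 in trained muscle, all higher in knockout-labelled libraries. The shares over all tested genes were 2.33% in sedentary (1.02% higher and 1.31% lower in knockout-labelled libraries) and 3.29% in trained muscle (1.99% higher and 1.30% lower). Both neighbours that passed, Gm42970 and Ank2, belong to the Ank2 locus, where Gm42971 had been picked for its genotype difference. Gm42970, the sedentary call, passed the filter on low counts only through knockout-labelled libraries. Nothing is therefore read from these numbers of calls.

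Ank2 itself was measured at 60.9 ± 4.78 CPM in sedentary vehicle and 112.1 ± 15.7 CPM in sedentary knockout libraries (SD, n = 5 each). The highest vehicle library had 68.4 CPM and the lowest knockout-labelled library 89.6 CPM, but the change of 0.83 with SE 0.235 on the log2 scale missed the threshold (edgeR adjusted p = 0.0843). Without trained vehicle library 2, which belongs to neither group, the same change had an adjusted p of 0.00133 (range over the alternatives 7.996e-05 to 0.195). In trained muscle Ank2 rose from 40.8 ± 14.4 CPM (SD, n = 5) to 91.9 ± 39.9 CPM (SD, n = 3), a log2 difference of 1.20, SE 0.265 (edgeR adjusted p = 0.0169). That call was lost without the trained knockout pair 1 and 4 (adjusted p = 0.106), without the pair 3 and 5 (0.0580) and with only the trained groups in the fit (0.371).

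Gm42970, another TEC model 12.8 kb upstream of Gm42971 on the same strand, rose from 0.402 ± 0.266 to 2.09 ± 0.803 CPM in sedentary muscle (SD, n = 5 each), a log2 difference of 2.31, SE 0.535 (edgeR adjusted p = 0.0235). In trained muscle the log2 change was 2.80 with SE 0.581 (edgeR adjusted p = 0.0110). No vehicle library reached 1 CPM for Gm42970 (highest 0.611 CPM). It passed the filter on low counts only through the genotype in which it is high, so its calls are a description. The sedentary call was lost without sedentary knockout library 1 (adjusted p = 0.0772), sedentary knockout library 4 (0.0582) or sedentary vehicle library 3 (0.0803). The trained call was lost without the trained knockout pair 1 and 4 (0.0870) and with only the trained groups in the fit (0.140).

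A wider look at the host gene, added after these values had been seen, took in all 12 genes of the table that M21 places inside Ank2. Apart from Gm42971 there were 11, of which 10 lie on the strand of Ank2 and 1, Gm16958, on the other. All 10 on the same strand had higher summed CPM in knockout-labelled than in vehicle libraries in both training states, most of them from few counts. Gm43322, for example, had 21 and 51 counts in sedentary and 17 and 44 counts in trained libraries. Gm43751 had 11 and 14 counts in sedentary libraries. Gm43750 had 2 counts in each trained group, so its higher CPM there comes only from the smaller knockout-labelled totals. Reads of these same-strand models cannot be told from unspliced Ank2 RNA either, so the 10 are not separate observations. The antisense gene Gm16958 had 7 and 2 counts in sedentary and 7 and 5 in trained libraries. Only Gm42970 among the 11 passed the filter on low counts, so the others have no test.

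The number of Gm42971 counts for every 1000 Ank2 counts differed between genotypes as well. It was 5.60 ± 2.83 in sedentary vehicle and 18.3 ± 2.37 in sedentary knockout samples (SD, n = 5 each). In trained samples it was 5.76 ± 3.74 (SD, n = 5) and 20.3 ± 8.05 (SD, n = 3). The highest vehicle sample had 12.2 and the lowest knockout-labelled sample 12.99, so the 2 genotypes did not overlap, although by little. As Gm42971 was chosen for its genotype difference, this ratio has no test.

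**Figure D3:**
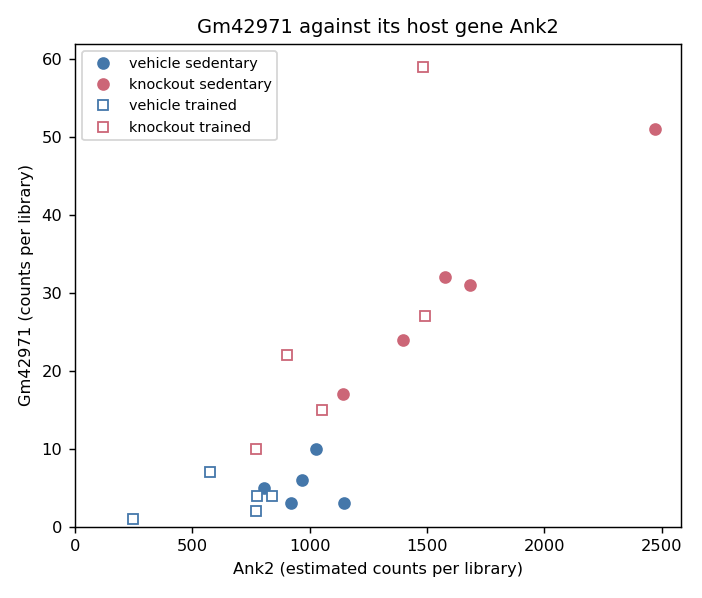
Counts of Gm42971 (vertical axis) against estimated counts of its host gene Ank2 (horizontal axis) in each of the 20 libraries; filled circles are sedentary, open squares trained, blue vehicle and red knockout-labelled libraries. Vehicle libraries hold at most 10 Gm42971 counts, also where their Ank2 counts reach 1145, and knockout-labelled libraries hold at least 10.

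Next to Gm10032 lies Adra1a, the gene of the alpha-1A adrenergic receptor, which ends 13.3 kb before Gm10032 starts, on the same strand. Its counts were 70, 82, 61, 74 and 90 in sedentary vehicle and 20, 38, 24, 22 and 21 in sedentary knockout libraries. In trained muscle they were 50, 4, 68, 109 and 60 in vehicle and 11, 11, 13, 6 and 14 in knockout-labelled libraries. The sedentary groups did not overlap, and in trained muscle only trained vehicle library 2, with 4 counts, stood below the knockout-labelled libraries. The log2 changes were -1.51 with SE 0.440 (edgeR adjusted p = 0.0953) in sedentary and -1.91 with SE 0.550 (edgeR adjusted p = 0.0657) in trained muscle, so neither passed. Without trained vehicle library 2 they were -1.51 (adjusted p = 0.000388) and -2.20 (adjusted p = 0.000170). Over all alternatives the adjusted p ranged from 0.000388 to 0.264 and from 0.000170 to 0.523. In trained vehicle library 2 Gm10032 itself stood at 54 counts, inside its group's range, while Adra1a was at its lowest.

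Dpysl2, which lies 9.1 kb beyond the other end of Gm10032 on the opposite strand, had log2 changes of 0.10 with SE 0.270 and -0.11 with SE 0.313 (edgeR adjusted p = 0.996 and 0.898). Near Gm20597, Mcm9, which encodes a DNA helicase and lies 17.3 kb upstream, had log2 changes of 0.18 with SE 0.165 and -0.04 with SE 0.191 (edgeR adjusted p = 0.921 and 0.936). Near Gm45218 the closest tested genes were Lsm3, 76.6 kb before it, and the taurine transporter gene Slc6a6, 78.5 kb after it. Lsm3 had log2 changes of 0.19 with SE 0.181 and 0.40 with SE 0.205 (edgeR adjusted p = 0.927 and 0.327). Those of Slc6a6 were -0.35 with SE 0.210 and -0.57 with SE 0.247 (edgeR adjusted p = 0.724 and 0.236). The sedentary groups of Slc6a6 did not overlap, with 150.3 CPM in the lowest vehicle and 149.1 CPM in the highest knockout-labelled library. Its sedentary adjusted p ranged over 25 alternatives from 0.0242 to 0.971 and was under 0.05 in 1. The nearest neighbours of Gm5420 (Gm29323, 34 counts over all libraries) and Gm40841 (2610307P16Rik, 78 counts) were too low to be tested. Of the 10 tested neighbours, only Gm42970 and Ank2 passed in either state in the main fit.

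**Figure D4:**
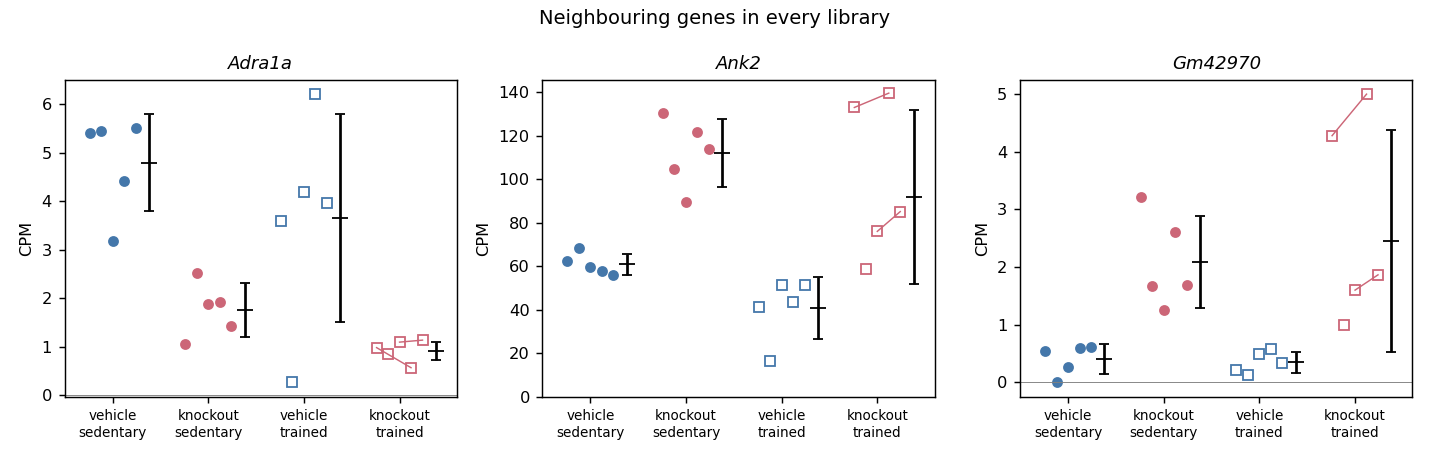
Level in CPM (vertical axis, linear) of Adra1a, Ank2 and Gm42970 in the 20 libraries by group, with symbols as in the plot of the 6 genes and bars giving mean and SD over samples. Sedentary groups do not overlap for the 3 genes, and trained groups overlap for Adra1a through 1 vehicle library; trained vehicle library 2 is the lowest vehicle library for Adra1a and Ank2.

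Genes of the clock were compared between genotypes with the same test. The list of 20 symbols was in the table in full and 19 were tested, of which 8 passed in sedentary muscle, 2 higher and 6 lower in knockout-labelled libraries. In trained muscle 6 passed, 1 higher and 5 lower. These were 42.1% and 31.6% of the tested clock genes, beside 2.33% and 3.29% of all tested genes. The median log2 change of the 19 was -0.58 in sedentary and -1.31 in trained muscle, beside 0.01 and -0.03 over all tested genes. Per2, a repressor of the clock that BMAL1 activates, fell from 44.0 to 21.6 CPM in sedentary muscle, a log2 difference of -1.09, SE 0.104 (edgeR adjusted p = 4.64e-06). Clock, the partner of BMAL1, rose by 1.20 with SE 0.158 (edgeR adjusted p = 0.000166), and Npas2, which can stand in for Clock, by 3.05 with SE 0.663 (edgeR adjusted p = 0.0145). Dbp, whose protein binds the D-box, changed by -1.77 with SE 0.447 (edgeR adjusted p = 0.0415), a call that 17 of its 25 alternatives did not keep. In trained muscle the log2 changes were -1.37 for Per2 (edgeR adjusted p = 7.77e-06) and 0.70 for Clock (0.0369). The trained Clock call was kept in 14 of 25 alternatives. Those of Npas2 (2.41, edgeR adjusted p = 0.0598) and Dbp (-1.31, edgeR adjusted p = 0.207) missed the threshold in trained muscle. Without trained vehicle library 2, 16 of the 19 passed in each state. Without the trained knockout pair 3 and 5, 3 passed in trained muscle, and with only the 2 groups compared in the fit 17 and 1 passed. Arntl had log2 changes of 0.91 with SE 0.742 and -1.57 with SE 0.875 (edgeR adjusted p = 0.886 and 0.372).

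The other genes with a Gm number were counted in the same way. Apart from the 6 there were 4760, of which 1314 were tested, and 21 of them (1.60%) passed in sedentary and 32 (2.44%) in trained muscle, with 13 in both, beside 2.33% and 3.29% of all tested genes. In sedentary muscle 8 were higher and 13 lower, and in trained muscle 19 were higher and 13 lower. The called genes next in size after the members, chosen here by their values and given without a test, were Gm19299 with a log2 change of -2.81 and Gm42970 with 2.31 in sedentary muscle, and Gm10599 with -2.64 and Gm12199 with 2.85 in trained muscle.

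Genes whose level followed each member most closely were found by Pearson r of log2(CPM + 1) over the 18 samples, which share libraries, depth and genotype groups, so r is a description. Mreg (r = 0.965), the glucose transporter gene Slc2a3 (0.963) and Mapre2 (0.960), whose protein binds microtubule ends, were most like Gm10032. Mreg (0.945), 1700001O22Rik (0.942) and Mapre2 (0.935) were most like Gm5420. For Gm20597 these were Mr1 (0.918), the endoplasmic reticulum stress gene Herpud1 (0.904) and Dglucy (0.900). Gm45218 went most closely with Gm8116 (0.943), Rhobtb1 (0.938) and the Z-disc gene Tcap (0.933).

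Ypel2 came first for both genes that were higher in knockout-labelled muscle. For Gm40841 it had r = 0.972 and was followed by Tnfaip2 (0.966) and Wsb1 (0.963). For Gm42971 it had r = 0.9497 and was followed by the cartilage matrix gene Cilp (0.9495) and the alanine aminotransferase gene Gpt (0.936). The most opposite genes were Rab11b (r = -0.972) and Prss55 (-0.961) for Gm10032, Dupd1 (-0.964) and Ttll7 (-0.955) for Gm5420, and Rgs2 (-0.931) and Abca4 (-0.889) for Gm20597. They were Sh3bp5 (-0.917) and Tead4 (-0.909) for Gm45218. For Gm40841 they were 1700001O22Rik (-0.948) and Aldh1a1 (-0.945), and for Gm42971 the same pair (-0.932 and -0.926). The ranking was not stable, since with Spearman ranks 1 of the 3 closest genes of Gm5420 and 0 of those of the other members stayed among the closest 3. Among the members, r was highest between Gm10032 and Gm5420 (0.934) and lowest in size between Gm20597 and Gm42971 (-0.649).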

How the data were processed

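RNA-seq gene values from 20 libraries were used. The authors deposited estimated counts per gene, under the name of another unit. Column sums differ, so the values are not CPM. Per the submitters' processing notes, Partek, STAR 2.7.8a and DESeq2 were used, with mm10 and GRCm39 as builds. Their roles, the annotation and the strandedness are not given in the sources used here. Rows without a symbol (14) hold 0.0115% of counts and were kept. Of the identifiers, 70 were missing from GENCODE M21, which gave gene models, overlaps and lengths.

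Counts were rounded. Of 190 library pairs, 2 whose noise at high counts was under 1.5 times that at low counts were summed, which left 18 samples. Genes at 1 CPM or above in 5 or more libraries were tested with edgeR 4.0.16 (R 4.3.3, TMM scaling, quasi-likelihood, 4 group means, two-sided, Benjamini-Hochberg over 14359 genes). DESeq2 1.42.0 was an alternative. The fit was also run on data simulated from its own dispersion estimates, with no outlying library. That run therefore does not check the effect of trained vehicle library 2. Standard errors come from the change and its F statistic. Named genes were the members, their neighbours within 100 kb, clock genes and, for each member, the 3 genes with the highest and the 2 with the lowest r. Members and lists were chosen with earlier results of these data known.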

Additional observations from a re-analysis of the deposited data

Results flagged for a closer look

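In the groups of 5 libraries each of the 6 genes was examined for a library far from the other 4, and 3 of 18 such groups had one. The limit used flags about 1 in 20 groups by chance for normally distributed values, a rate that was not tested for counts this low. Gm40841 reached 6.91 CPM in sedentary knockout library 1 (131 counts), and the other 4 libraries of that group lay between 2.43 and 3.32 CPM. The same library also had the highest Gm42971, Ank2 and Arntl counts of its group (51, 2473 and 358). Gm5420 reached 1.73 CPM in trained vehicle library 1 (24 counts, against 16 to 17 in the others). Gm10032 had 0.0677 CPM in sedentary knockout library 5, which is 1 count where the other 4 had 0.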

How the results depend on the processing

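The genotype difference of each of the 6 genes kept its direction in all alternatives run. The genes were picked for this difference in the same libraries, and their groups did not overlap. The kept direction was therefore set by the choice and gives no support. The widest range of log2 change was -6.92 to -4.59 for Gm20597 in trained muscle, and the narrowest was 2.31 to 2.88 for Gm42971 in sedentary muscle. Gm20597, Gm45218 and Gm5420 did not pass the stricter filter (5 or more libraries at 2 CPM or above) and have no value there. With DESeq2, 537 genes passed for the sedentary knockout effect (334 with edgeR), 907 for the trained one (473), 173 for training in knockout-labelled muscle, 505 for training averaged over genotypes and 29 for the interaction (0 each with edgeR). The Gm-number genes called were 33 and 52 (21 and 32 with edgeR), and 3 neighbours passed in sedentary muscle. With only the 2 groups compared in the fit, 1177 genes passed in sedentary and 20 in trained muscle, with 67 and 0 Gm-number genes, 17 and 1 clock genes and 4 and 0 neighbours. With the 20 libraries taken as separate, 1225 genes passed for the trained knockout effect, with 57 Gm-number and 12 clock genes, and 49 for training in knockout-labelled muscle. The stricter filter left 0 and 1 neighbours called, because Gm42970 was no longer tested, and 2 and 4 passed within 250 kb.

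Over 30 same-numbered pairs the correlation of deviations ranged from -0.395 to 0.347, and 11 were over 0.1. They were not compared with differently numbered pairs, so they cannot show whether libraries of one number share an animal, litter, batch or day. No label says what the number marks. With the replicate number as a block and 20 libraries, 336 genes passed in sedentary and 980 in trained muscle. In that block fit 20 and 48 Gm-number genes, 7 and 9 clock genes and 1 and 3 neighbours passed, with 0 genes for each training comparison and the interaction.

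Leaving out 1 sample at a time gave 251 to 1002 genes in sedentary and 177 to 1244 in trained muscle. It gave 0 to 1 for training in vehicle, 0 to 397 in knockout-labelled muscle, 0 to 856 averaged and 0 to 0 for the interaction. The Gm-number genes ranged from 15 to 54 and from 12 to 72, clock genes from 7 to 16 and from 3 to 16, and neighbours from 0 to 3 in each state. Trained vehicle library 2 gave the highest counts of both knockout effects when left out, and the trained knockout pair 3 and 5 the lowest in trained muscle (299 without trained knockout library 2). For training in knockout-labelled muscle, 397 genes passed without the trained knockout pair 1 and 4, 121 without trained vehicle library 2 and 45 without trained vehicle library 1. For the average, 856 passed without that pair and 361 without trained vehicle library 3. Neighbour calls fell to 0 in sedentary muscle without sedentary knockout library 1 or 4 or sedentary vehicle library 3. Without trained vehicle library 2 the Arntl change in trained muscle was 0.81 (adjusted p = 0.0148) where it had been -1.57. Without any other sample it lay between -1.87 (without the trained knockout pair 1 and 4) and -1.42, with -1.84 without trained vehicle library 1. The trained Gm-number count was 22 without trained knockout library 2. The cause of these shifts was not tested. Depth limits the lower genotype of each gene, where most libraries held 0 to 6 counts.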
